A study of Mus musculus with 12 samples.

Results

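The 10 genes described here encode transcription factors that set or keep the identity of B cells: *Pax5*, *Ebf1*, *Foxo1*, *Ikzf1*, *Ikzf3*, *Irf4*, *Irf8*, *Spib*, *Bcl6* and *Bach2*. They were chosen by symbol and required to have a row in both deposited count tables. All 10 met that rule, and they are 10 of the 12837 genes that the tables share. Follicular B cells (CD23+ CD21/35-) were sorted from the spleens of adult male mice for bulk RNA sequencing. Control mice were *Gpr174*+/Y (WT) and deficient mice were *Gpr174*-/Y (KO). In the KO allele the tdTomato reporter takes the place of the only coding exon of *Gpr174*, an X-linked gene for a receptor that couples to Gαs, and the deletion is not limited to B cells. Cells of both genotypes were used right after sorting (0 h) or following culture for 4 h in complete RPMI with serum and without any added stimulus. This gives 4 groups, each genotype at each time, with 3 libraries in each. The labels do not say whether a 0 h and a 4 h library of the same number come from 1 mouse, so p-values measure the spread between libraries.

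PAX5 and EBF1 act together to switch on genes of the B lineage and to shut out those of other lineages. Ikaros and Aiolos (*Ikzf1* and *Ikzf3*), FOXO1 and SPIB work beside them in mature B cells, where they tune antigen receptor signaling, homing and survival. IRF4 and IRF8 are related factors with partly opposed roles, and BCL6 and BACH2 are repressors that hold back plasma cell differentiation, which IRF4 promotes.

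Library totals ran from 6098941 to 11618787 reads, and the WT 0 h libraries were the deepest (9370826 to 11618787). Each of the 10 genes held from 746 to 13990 reads in a library, and its level varied by 0.772% to 9.37% (coefficient of variation) between the 3 libraries of a group. *Gpr174* was lower in KO than in WT in every library at each time, with a log2 fold change (WT over KO) of 1.02 ± 0.06 (SE) at 0 h and 0.56 ± 0.07 at 4 h. KO libraries kept reads of this gene, at 74.7 ± 1.76 CPM (SD, n = 3) at 0 h, and the tables do not separate the replaced exon from the rest of the gene. The 8 of 10 B cell markers with a row summed to between 12682 and 18144 CPM in all libraries. Marginal zone B cell markers, led by *Cr2*, summed to 1280 to 1498 CPM before culture, 471.6 to 497.1 in cultured WT and 599.6 to 668.4 in cultured KO libraries. These sums mostly follow *Cr2*, at 1069 ± 45.7 CPM in WT and 960 ± 91.4 in KO before culture (SD, n = 3). After culture *Cr2* was at 158.7 ± 26.6 in WT and 299.4 ± 22.3 in KO. The other markers of this set had means from 0.911 (*Asb2*) to 122.9 CPM (*2010001M09Rik*, the row of *Mzb1*) in WT before culture. Whether the *Cr2* reads come from marginal zone cells was not tested. Of the 8 marginal zone markers tested, culture lowered 5 and raised 2 in WT, and lowered 6 and raised 2 in KO. Of all genes tested, culture lowered 18.0% and raised 15.1% in WT, and lowered 13.0% and raised 10.3% in KO. Summed markers of T cells stayed at or below 43.5 CPM, those of macrophages and monocytes at or below 67.5, of plasmacytoid dendritic cells at or below 62.4 and of conventional dendritic cells at or below 13.4. Fewer cells of a type and less RNA per cell cannot be told apart in these bulk libraries.

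All 10 genes passed the filter on low counts in every comparison. Levels are CPM, counts divided by the library total after TMM scaling, which corrects for differences in library composition. Divided by the length of the longest coding transcript, the WT 0 h level was highest for *Ikzf3*, at 350.3 ± 7.74 CPM per kb (SD, n = 3). *Spib* followed at 278.7 ± 7.69 CPM per kb, *Ikzf1* at 151.4 ± 1.95 and *Irf8* at 108.6 ± 9.82. The others stood at 91.7 ± 1.30 CPM per kb for *Bach2*, 74.3 ± 2.79 for *Irf4*, 64.2 ± 5.87 for *Bcl6*, 53.3 ± 4.99 for *Foxo1*, 48.9 ± 2.08 for *Ebf1* and 46.0 ± 4.00 for *Pax5*. From *Bcl6* downwards the libraries of each gene overlapped those of the next in this order, so these neighbours were not separated. Each of the 6 genes above *Bcl6* lay, in all libraries, above the gene that followed it. The order depends on the gene model. With the length of all annotated exons together, *Spib* came first and *Irf8* moved from rank 4 to rank 7.

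At 0 h 0 of the 10 genes were called different between genotypes with edgeR (0 with DESeq2, 2 at an unadjusted p under 0.05), beside 0.987% of all genes tested, and after 4 h of culture 6 of the 10 were, beside 10.9%. Over the culture *Pax5*, *Ikzf1*, *Ikzf3*, *Irf8* and *Spib* fell in both genotypes. The KO calls of *Pax5*, *Ikzf3* and *Irf8* were lost on plain library totals. *Bcl6* fell in WT and was not called in KO. *Bach2* rose in KO and was not called in WT, and *Irf4* and *Foxo1* rose in WT and missed the threshold in KO (adjusted p 0.0564 and 0.0705), with no called difference between the genotypes' changes. The culture change of *Pax5*, *Ikzf3*, *Bcl6* and *Bach2* differed between genotypes, each ending higher in KO. That of *Irf8*, also higher in KO at 4 h, was not shown to differ (edgeR adjusted p 0.328). At 0 h the KO libraries of *Irf8* already lay above those of WT, without a call. A gene is called where the edgeR quasi-likelihood test gives an adjusted p under 0.05, with adjustment over all genes tested.

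**Figure D1:**
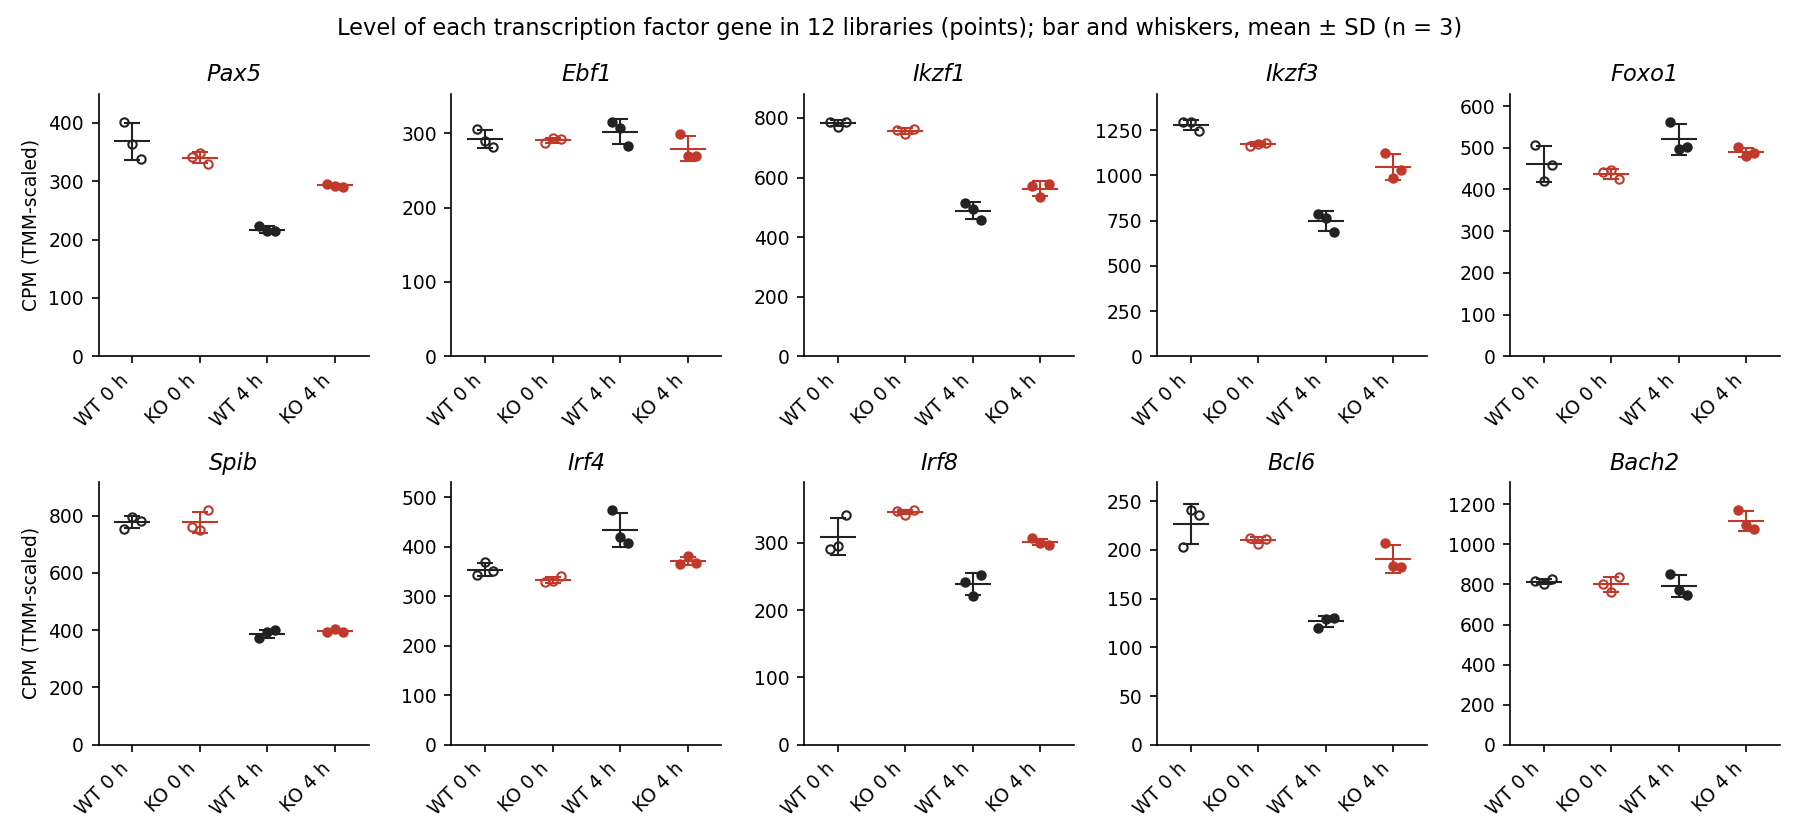
Level of each gene in CPM (vertical axes, each from 0) in the 3 libraries of each genotype and time, with points for libraries, bars for means and whiskers for SD. *Spib* fell in both genotypes, *Pax5*, *Ikzf3* and *Bcl6* stood lowest in WT 4 h, and *Bach2* stood highest in KO 4 h (1075 to 1171 CPM).

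*Pax5* (chromosome 4, 44524757 to 44710487, minus strand; coordinates here and below are of GRCm38/mm10) encodes the commitment factor of the B lineage. Its level before culture was 402.0, 363.6 and 338.4 CPM in WT libraries, and 341.5, 349.0 and 330.2 CPM in KO libraries. It was 223.3, 214.3 and 213.8 CPM in cultured WT libraries, and 295.7, 292.2 and 289.9 CPM in cultured KO libraries. All cultured libraries were thus below all uncultured ones, and at 4 h every WT library was below every KO library. Culture changed *Pax5* by a log2 fold change (4 h over 0 h) of -0.76 ± 0.06 in WT, with an edgeR adjusted p of 1.57e-09, and of -0.22 ± 0.06 in KO, with an edgeR adjusted p of 0.00962. The KO value lost its call on plain library totals (-0.13, edgeR adjusted p 0.101). The difference between these changes was -0.54 ± 0.08 (edgeR adjusted p 0.000162), and the 4 h difference between genotypes was -0.43 ± 0.06 (WT over KO, edgeR adjusted p 6.86e-05).

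*Ebf1* (chromosome 11, 44617317 to 45008091, plus strand), which encodes the pioneer factor that opens B cell chromatin and works upstream of and with PAX5, gave no call in any comparison. Before culture, *Ebf1* was counted at 305.8, 290.0 and 281.2 CPM in the WT libraries and 286.5, 293.5 and 292.1 in the KO libraries. The cultured WT libraries held 315.8, 307.5 and 283.6 CPM and the cultured KO libraries 299.3, 269.4 and 269.7. The libraries of all groups overlapped. The culture change was 0.05 (log2; 2 standard errors around it, -0.07 to 0.16) in WT and -0.06 (-0.17 to 0.06) in KO, where the sign turned to 0.03 on plain library totals. On those totals the WT change became 0.16 (edgeR adjusted p 0.0344). *Pax5* and *Ebf1*, which are often named together, had separate patterns across the 12 libraries (Pearson r of log2 CPM -0.18, a description over libraries that fall into 4 groups).

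*Ikzf1* (chromosome 11, 11685003 to 11772926, plus strand) and *Ikzf3* (chromosome 11, 98464902 to 98546031, minus strand) encode the zinc finger proteins Ikaros and Aiolos. Uncultured WT cells gave 787.0, 769.9 and 787.7 CPM of *Ikzf1* in their 3 libraries, and uncultured KO cells gave 761.3, 746.0 and 763.3. After culture the values were 513.8, 496.0 and 458.0 CPM for WT and 572.5, 533.3 and 579.6 for KO. *Ikzf1* was lower in every cultured library than in any uncultured one. For *Ikzf3*, freshly sorted WT cells held 1298, 1298 and 1249 CPM and freshly sorted KO cells 1164, 1175 and 1182. Cultured cells held 788.7, 766.4 and 686.7 CPM when WT and 1127, 984.2 and 1032 when KO. *Ikzf3* too was lower in every cultured library than in any uncultured one, with the WT 4 h libraries lowest. Both fell in WT (log2 fold change -0.68 ± 0.05 and edgeR adjusted p 1.45e-09 for *Ikzf1*, and -0.78 ± 0.06 and 6.78e-10 for *Ikzf3*). In KO *Ikzf1* changed by -0.43 ± 0.05 (edgeR adjusted p 2.41e-06) and *Ikzf3* by -0.16 ± 0.06 (edgeR adjusted p 0.0416). That last call was lost on plain library totals (-0.07, adjusted p 0.348) and without any single KO library other than KO 4 h replicate 1 (adjusted p 0.088 to 0.205). The culture change differed between genotypes for *Ikzf3* (-0.61 ± 0.08, edgeR adjusted p 2.47e-05) and missed the threshold for *Ikzf1* (-0.25 ± 0.07, edgeR adjusted p 0.0505). At 4 h *Ikzf3* was lower in WT (WT over KO, log2 fold change -0.49 ± 0.07, edgeR adjusted p 0.000162). *Ikzf1* gave -0.20 ± 0.06 and missed the threshold (edgeR adjusted p 0.0512), with WT and KO libraries that did not overlap. Both *Ikzf1* values were called in DESeq2 (adjusted p 0.0241 at 4 h and 0.0127 for the difference of changes). With a block for replicate number in the fit, the difference of changes was called (edgeR adjusted p 0.0338) and the 4 h value was not (edgeR adjusted p 0.0886).

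*Foxo1* (chromosome 3, 52268336 to 52353221, plus strand), whose product drives homing receptor genes when phosphoinositide 3-kinase signaling is low, moved little. The uncultured libraries held 506.2, 420.0 and 458.0 CPM of *Foxo1* (WT) and 441.2, 445.8 and 424.6 CPM (KO). The cultured libraries held 562.7, 497.6 and 500.9 CPM (WT) and 501.0, 479.9 and 487.2 CPM (KO). The WT libraries of the 2 times overlapped and the KO libraries did not. Culture changed it by 0.17 ± 0.06 in WT (edgeR adjusted p 0.0408) and 0.16 ± 0.06 in KO (edgeR adjusted p 0.0705), and the difference between these was 0.01 (2 standard errors, -0.17 to 0.19). The WT call rested on single libraries and was lost without WT 0 h replicate 2 (0.11, adjusted p 0.221), without WT 0 h replicate 3 (0.17, adjusted p 0.0972) or without WT 4 h replicate 1 (0.12, adjusted p 0.188), and when only the WT groups entered the fit (adjusted p 0.101). The KO value was called on plain library totals (0.25, adjusted p 0.00317) and when only the KO groups entered the fit (0.16, adjusted p 0.0117). It was also called with a block for replicate number in the fit (0.16, adjusted p 0.0204).

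*Spib* (chromosome 7, 44525993 to 44532071, minus strand), which encodes an ETS factor that works with PU.1 in mature B cells, had the largest culture change of the 10 in each genotype. Before culture, *Spib* was counted at 753.8, 796.1 and 781.3 CPM in the WT libraries and 760.2, 749.5 and 818.7 in the KO libraries. The cultured WT libraries held 371.0, 392.2 and 399.1 CPM and the cultured KO libraries 391.8, 402.8 and 392.9. Every cultured library was far below every uncultured one, and WT and KO overlapped at each time. The log2 change was -1.0 ± 0.05 in WT (edgeR adjusted p 1.94e-12) and -0.97 ± 0.05 in KO (edgeR adjusted p 1.32e-11). The genotypes differed in this change by -0.03 (2 standard errors, -0.18 to 0.11), and at 4 h they differed by -0.03 (-0.14 to 0.08).

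*Irf4* (chromosome 13, 30749226 to 30766976, plus strand), a factor induced upon B cell activation, and *Irf8* (chromosome 8, 120736358 to 120756694, plus strand), its relative, which favors the follicular and germinal center state, moved in opposite directions in cultured WT cells. Uncultured WT cells gave 342.7, 368.7 and 351.1 CPM of *Irf4* in their 3 libraries, and uncultured KO cells gave 328.2, 331.7 and 340.6. After culture the values were 474.3, 420.5 and 408.8 CPM for WT and 365.3, 381.4 and 367.5 for KO. The cultured WT libraries lay above the other 9. For *Irf8*, freshly sorted WT cells held 291.3, 295.1 and 341.5 CPM and freshly sorted KO cells 346.6, 342.1 and 348.6. Cultured cells held 242.5, 221.6 and 252.9 CPM when WT and 306.9, 300.0 and 297.5 when KO. At 4 h every WT library was above every KO library for *Irf4* and below every KO library for *Irf8*. In WT, culture raised *Irf4* by 0.29 ± 0.06 (log2, edgeR adjusted p 0.000397) and lowered *Irf8* (log2 fold change -0.37 ± 0.06, edgeR adjusted p 9.25e-05). In KO the changes were smaller in size, 0.16 ± 0.06 for *Irf4* (edgeR adjusted p 0.0564) and -0.20 ± 0.06 for *Irf8* (edgeR adjusted p 0.0259). The KO value of *Irf4* was called on plain library totals (0.25, adjusted p 0.00193), with only the KO groups in the fit (0.15, adjusted p 0.0142) and in DESeq2 (0.16, adjusted p 0.0441). The KO call of *Irf8* was lost on plain library totals (-0.11, adjusted p 0.231) and without any 1 of the 6 KO libraries (adjusted p 0.0506 to 0.0826). Neither gene's culture change was shown to differ between genotypes (*Irf4* 0.14, 2 standard errors -0.02 to 0.30, edgeR adjusted p 0.416, and *Irf8* -0.17, -0.35 to 0.0043, edgeR adjusted p 0.328).

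At 4 h *Irf4* was higher in WT by 0.23 ± 0.06 (WT over KO, edgeR adjusted p 0.0344) and *Irf8* lower by a log2 fold change of -0.33 ± 0.06 (edgeR adjusted p 0.00179). The *Irf4* call rested on single libraries. It was lost without WT 4 h replicate 1 (log2 fold change 0.15, adjusted p 0.113) and without KO 4 h replicate 1, 2 or 3 (0.21, 0.25 and 0.22, with adjusted p 0.131, 0.0771 and 0.123). The *Irf8* call kept its side of the threshold in all alternatives tried (adjusted p 3.22e-05 to 0.0132). Plasma cells express *Irf4* strongly, and 4 of 5 plasma cell markers had a row. Their summed level was 184.6 to 197.7 CPM in WT 4 h and 227.0 to 261.9 CPM in KO 4 h, of which *Slamf7* made up most (137.2 ± 1.71 and 195.7 ± 3.11 CPM). The other markers were at 24.3 ± 4.15 and 17.7 ± 1.57 CPM for *Sdc1*, 9.27 ± 1.99 and 7.28 ± 2.40 for *Prdm1* and 22.1 ± 11.8 and 21.9 ± 12.2 for *Igj*, in cultured WT and cultured KO libraries. Their part in the result was not tested.

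The ratio of reads between 2 genes in a library does not depend on how libraries are scaled. This measure was picked after the values were seen and is given without a test. For *Irf4* over *Irf8* it was 1.18, 1.25 and 1.03 in uncultured WT libraries and 0.965 ± 0.016 (SD, n = 3) in uncultured KO libraries, and at 4 h it was 1.96, 1.90 and 1.62 in WT against 1.19, 1.27 and 1.24 in KO. The WT 4 h libraries lay above all others, and the KO 4 h libraries overlapped WT 0 h. For *Ikzf3* over *Ikzf1* the ratio was 1.64 ± 0.05 in WT and 1.55 ± 0.02 in KO before culture, and 1.53 ± 0.02 in WT and 1.87 ± 0.10 in KO after it, and the 3 KO 4 h libraries lay above the other 9. For *Bach2* over *Bcl6* it rose in culture in both genotypes, from 3.62 ± 0.36 to 6.27 ± 0.72 in WT and from 3.82 ± 0.14 to 5.85 ± 0.18 in KO, and the genotypes overlapped at each time.

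**Figure D2:**
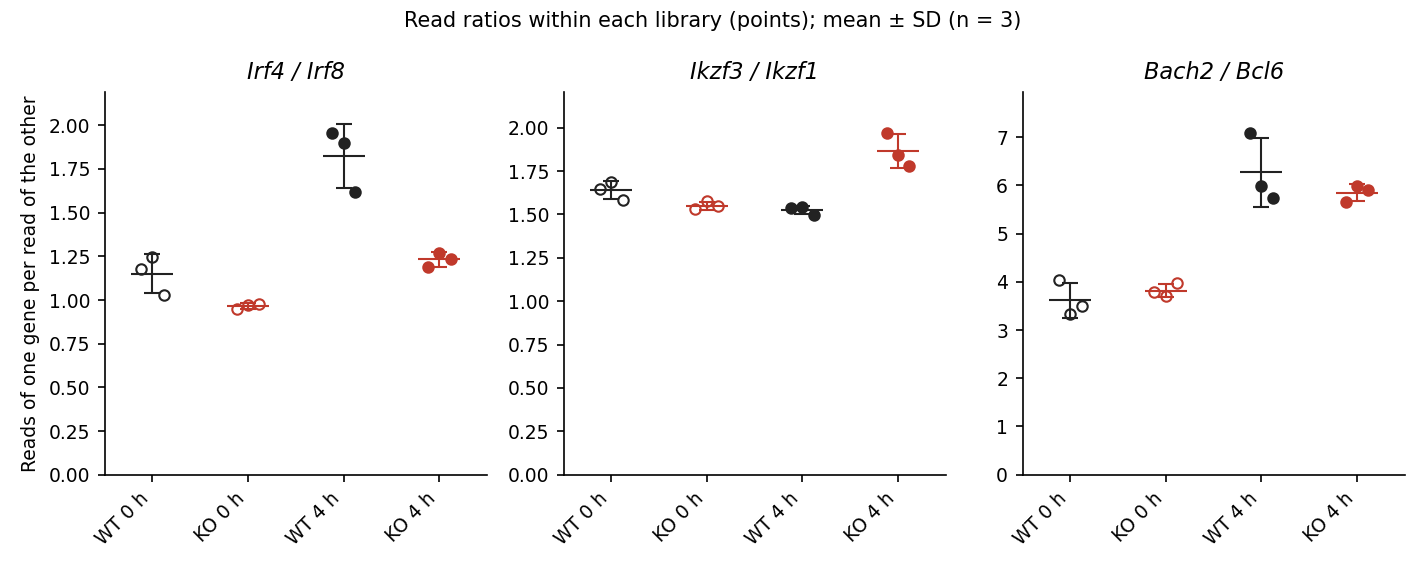
Reads of the first gene per read of the second in each library (vertical axes, from 0, no unit), for *Irf4* over *Irf8*, *Ikzf3* over *Ikzf1* and *Bach2* over *Bcl6*, with points for libraries and bars and whiskers for mean and SD. *Irf4* over *Irf8* is highest in WT 4 h (1.82 ± 0.18), *Ikzf3* over *Ikzf1* in KO 4 h (1.87 ± 0.10), and *Bach2* over *Bcl6* is higher at 4 h than at 0 h in both genotypes.

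*Bcl6* (chromosome 16, 23965052 to 23988852, minus strand) encodes the repressor that defines germinal center B cells and is found at low level in follicular B cells. The uncultured libraries held 202.7, 240.9 and 235.5 CPM of *Bcl6* (WT) and 212.5, 206.3 and 211.1 CPM (KO). The cultured libraries held 120.3, 129.2 and 130.3 CPM (WT) and 207.5, 183.4 and 182.0 CPM (KO). The WT 4 h libraries lay below all 9 others, and the KO libraries of the 2 times overlapped. Culture lowered *Bcl6* in WT (-0.84 ± 0.07, edgeR adjusted p 3.93e-09) and gave -0.14 ± 0.07 in KO (edgeR adjusted p 0.162). This difference between genotypes was the largest of the 10 (-0.70 ± 0.10, edgeR adjusted p 4.72e-05), as was that at 4 h (-0.59 ± 0.07, edgeR adjusted p 1.9e-05). The summed level of 7 germinal center B cell markers, *Bcl6* not among them, was 84.8 to 138.9 CPM in KO against 35.0 to 68.4 in WT at 0 h, and 31.9 to 76.3 against 19.4 to 36.2 at 4 h, where 6 of the 7 had a row and the genotypes overlapped. *Bcl6* itself gave a log2 fold change (WT over KO) of 0.10 ± 0.06 at 0 h. Summed levels of 12 proliferation markers were 190.4 to 283.9 CPM in WT and 421.8 to 587.4 in KO at 0 h, without overlap, and 168.2 to 218.7 in WT and 205.6 to 339.2 in KO at 4 h, with overlap. At 0 h 6 of the 12 were called higher in KO, and at 4 h 2 were, *Mki67* (-0.83 ± 0.17, edgeR adjusted p 0.00424) and *Ccna2* (-0.80 ± 0.19, edgeR adjusted p 0.0141). Of all genes tested, 0.987% were called in either direction at 0 h, and 5.67% were called higher in KO at 4 h. The part of either marker set in the *Bcl6* result was not tested.

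*Bach2* (chromosome 4, 32238804 to 32586108, plus strand) encodes a repressor that holds B cells back from plasma cell fate. Before culture, *Bach2* was counted at 816.7, 802.1 and 824.9 CPM in the WT libraries and 804.2, 763.7 and 838.0 in the KO libraries. The cultured WT libraries held 852.2, 774.2 and 746.7 CPM and the cultured KO libraries 1171, 1099 and 1075. The KO 4 h libraries stood above all 9 others, which overlapped. The change in KO was 0.48 ± 0.06 (edgeR adjusted p 1.49e-06), and in WT it was -0.04 ± 0.06 (edgeR adjusted p 0.598), where the sign turned to 0.06 on plain library totals. The changes differed by -0.52 ± 0.08 (edgeR adjusted p 0.000142), and the 4 h difference was -0.50 ± 0.06 (edgeR adjusted p 6.74e-05). *Bach2* thus differed from *Pax5*, *Ikzf3* and *Bcl6* in how it came to be higher in KO at 4 h. It rose in KO, while those fell in WT, with a smaller or uncalled fall in KO.

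Promoter windows were searched because GPR174 couples to Gαs, which raises cAMP, and CREB, a factor activated by cAMP signaling, binds the cAMP response element (TGACGTCA). The windows come from RefSeq on GRCm38.p6, with 250 bases before and 50 after an annotated start, and 13 windows covered 9 of the 10 genes. Both strands were searched. The full element was in 0 of the 13 windows and in 1.79% of all 32851 windows, and AAAGGTCA, the element bound by NR4A receptors, was in 0 of 13 against 1.51%. The short site TGACG, which is contained in the full element, was in 3 of 13 against 20.8% of all windows. It was found in *Ikzf1*, in the second window of *Ebf1* and at 2 places in the first window of *Bcl6*. A match is only a description of letters. The first window of *Bcl6* and the windows of *Pax5* and *Bach2* are shown. These are the genes with a window whose culture change differed between genotypes. The windows shown run 5′ to 3′ on the gene's strand, with the matches to TGACG on either strand in capitals. They lie on chr16:23988803-23989102 (minus strand), chr4:44710645-44710944 (minus strand) and chr4:32417185-32417484 (plus strand), and the *Bach2* window lies inside the span of the gene given above.
Bcl6: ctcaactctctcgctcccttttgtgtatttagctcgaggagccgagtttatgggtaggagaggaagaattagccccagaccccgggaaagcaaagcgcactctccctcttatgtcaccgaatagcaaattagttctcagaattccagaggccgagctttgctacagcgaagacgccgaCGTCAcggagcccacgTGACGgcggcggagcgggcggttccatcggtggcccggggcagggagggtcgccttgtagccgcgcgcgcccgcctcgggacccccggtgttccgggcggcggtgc
Pax5: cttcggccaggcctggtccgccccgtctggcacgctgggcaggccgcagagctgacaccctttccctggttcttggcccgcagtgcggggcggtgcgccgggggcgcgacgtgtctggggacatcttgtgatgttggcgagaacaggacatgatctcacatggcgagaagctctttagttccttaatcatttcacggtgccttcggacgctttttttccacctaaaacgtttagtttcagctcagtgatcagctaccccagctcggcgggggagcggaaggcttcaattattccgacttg
Bach2: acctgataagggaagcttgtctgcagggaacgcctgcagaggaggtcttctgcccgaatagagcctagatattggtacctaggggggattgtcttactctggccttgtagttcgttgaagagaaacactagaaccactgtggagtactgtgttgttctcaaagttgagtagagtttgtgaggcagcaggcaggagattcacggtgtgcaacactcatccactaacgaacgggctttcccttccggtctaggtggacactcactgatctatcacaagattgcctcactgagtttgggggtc
The matches in *Bcl6* begin 72 and 56 bases before the annotated start, and the windows of *Pax5* and *Bach2* hold none.

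The genotype contrast at 0 h called 0 of the 10 genes with edgeR and 0 with DESeq2, against a background of 0.987% of 11345 genes tested. An unadjusted p under 0.05 was reached by 2 of the 10, *Ikzf3* (0.00901, log2 fold change 0.12 ± 0.04, adjusted p 0.202) and *Irf8* (0.0128, -0.17 ± 0.06, adjusted p 0.229). WT and KO libraries did not overlap for 4 of the 10 (*Ikzf1*, *Ikzf3* and *Irf4*, higher in WT, and *Irf8*, higher in KO), against 18.3% of all genes. The log2 differences of all 10 lay between -0.17 and 0.12, with a median of 0.05, and the directions of *Ebf1*, *Spib* and *Bach2* at 0 h turned under at least 1 other scaling, filter or tool.

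At 4 h the genotype contrast called 6 of 10, against 10.9% of 11123 genes tested. The standard errors of the 10 ran from 0.0552 (*Pax5*) to 0.0682 (*Ikzf3*), below the median of 0.1108 over all genes. A change of a given size is thus called more readily in these genes than in most others. Their standard errors were below the median in the other comparisons as well. *Irf4* was higher in WT, where 5.22% of all genes were called, and *Pax5*, *Ikzf3*, *Irf8*, *Bcl6* and *Bach2* were higher in KO, where 5.67% were. Libraries did not overlap for 7 of 10, against 27.9% of all genes. The median log2 difference was -0.27 over the 10 and 0.00489 over all genes.

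**Figure D3:**
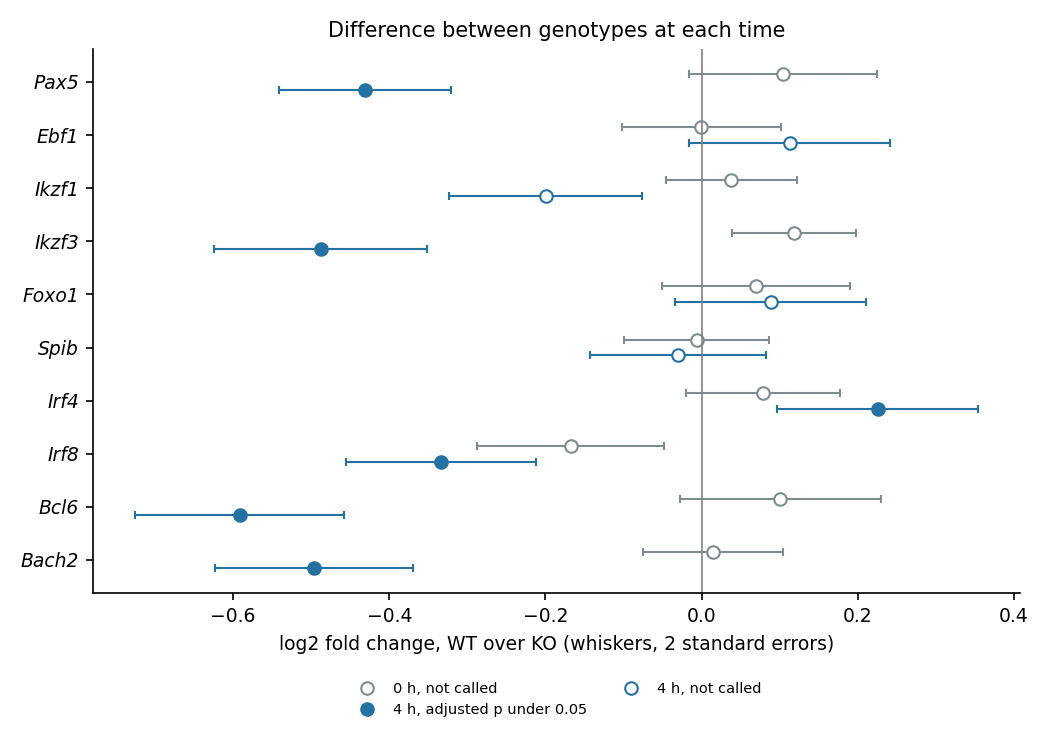
Log2 fold change of each gene, WT over KO (horizontal axis), at 0 h (grey) and 4 h (blue), with whiskers of 2 standard errors and filled points for an adjusted p under 0.05. At 0 h all values lie between -0.17 and 0.12, and at 4 h they reach from -0.59 (*Bcl6*) to 0.23 (*Irf4*).

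Culture in WT called 8 of 10 genes, against 33.1% of 11563 tested, with 2 raised (15.1% of all genes) and 6 lowered (18.0%). Culture in KO called 6 of 10, against 23.3%, with 1 raised (10.3%) and 5 lowered (13.0%). The median log2 change was -0.52 in WT and -0.15 in KO over the 10, and near 0 over all genes. These splits over all genes depend on scaling. On plain library totals the median of all genes moved to 0.11 in WT and 0.09 in KO, and culture in WT then called 3003 genes raised and 1500 lowered in place of 1749 and 2079, and culture in KO 2168 raised and 1102 lowered in place of 1193 and 1504. The 2 times were deposited as separate tables, so table and time cannot be told apart. The test of the difference between the culture changes called 4 of 10, all lower in WT, against 6.39% of all genes called and 3.94% called lower in WT. The 4 genes kept their call in all 17 alternatives each.

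**Figure D4:**
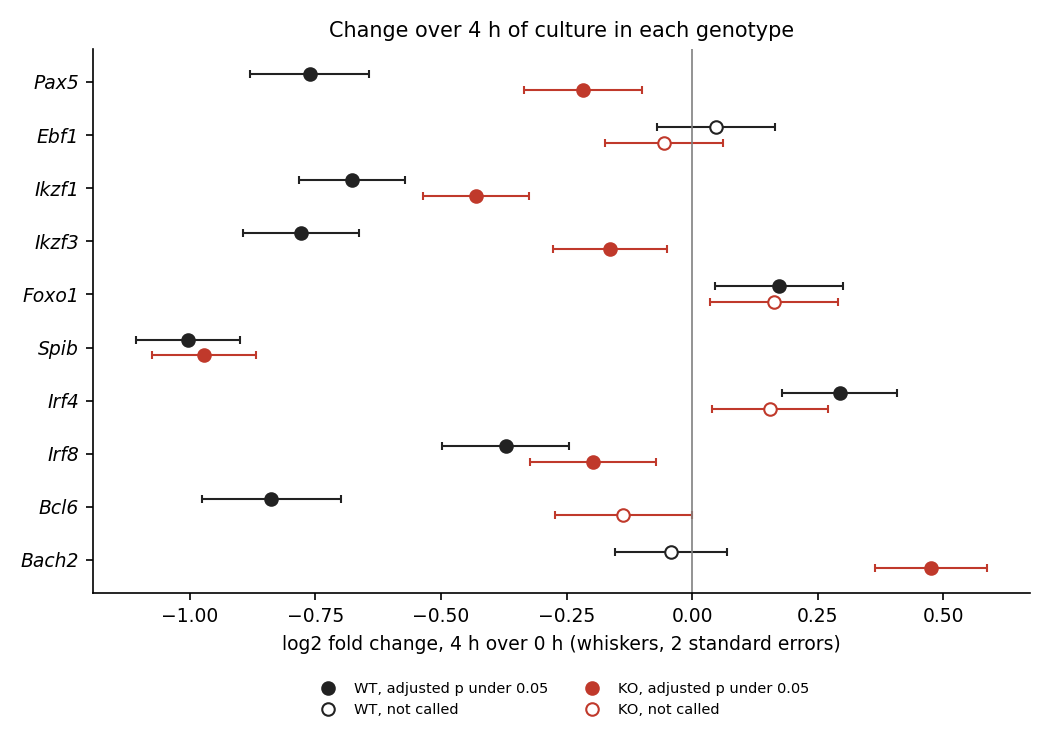
Log2 fold change of each gene over 4 h of culture (horizontal axis, 4 h over 0 h) in WT (black) and KO (red), with whiskers of 2 standard errors and filled points for an adjusted p under 0.05. The whiskers of *Pax5*, *Ikzf1*, *Ikzf3*, *Bcl6* and *Bach2* do not touch between genotypes, and those of *Spib* (-1.0 and -0.97) overlap.

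Across the 12 libraries, the genes fell into patterns that can be described by Pearson r of log2 CPM. *Pax5* ran with *Ikzf3* (r 0.97), *Ikzf3* with *Bcl6* (0.96) and *Ikzf1* with *Spib* (0.95), while *Irf4* and *Irf8* ran opposite (-0.88). Among all genes tested in all groups, the 2 nearest to each were *Cmah* (0.99) and *St6gal1* (0.99) for *Pax5*, *Tnik* (0.89) and *Slc18a2* (0.84) for *Ebf1*, *Smad7* (0.95) and *Irf2bp2* (0.95) for *Foxo1*, *Bcl11a* (0.99) and *Zfp385a* (0.99) for *Ikzf1*, and *Dock11* (0.98) and *Sh3kbp1* (0.98) for *Ikzf3*. They were *Gm16515* (0.97) and *Pip5k1c* (0.96) for *Irf4*, *Ctss* (0.95) and *Tmem231* (0.95) for *Irf8*, *Acap1* (0.99) and *Hes1* (0.99) for *Spib*, *Myo5a* (0.98) and *Filip1l* (0.98) for *Bcl6*, and *Arhgef3* (0.95) and *Slamf7* (0.94) for *Bach2*. These values rest on 12 libraries in 4 groups, so they reflect shared differences between groups and give no p.

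The known partners and targets of these factors were examined as lists, whose counts are read beside the shares of all genes called in the same comparison: 0.987% between genotypes at 0 h, 10.9% at 4 h, 33.1% over culture in WT, 23.3% over culture in KO and 6.39% for the difference of culture changes. Of 22 other B-lineage transcription factors, 21 were tested. At 4 h, 3 of them were higher and 5 lower in WT, led by *Tcf12* (log2 fold change, WT over KO, 0.50 ± 0.06), *Pou2f2* (-0.41 ± 0.06) and *Id3* (-0.40 ± 0.07), and the list median was 0.03. At 0 h edgeR called 0 of them and DESeq2 called 0, with 5 at an unadjusted p under 0.05. Culture in WT raised 8 and lowered 7, among them *Bcl11a* (log2 fold change, 4 h over 0 h, -1.16 ± 0.06), *Id2* (-1.23 ± 0.35) and *Lef1* (1.06 ± 0.24), and culture in KO raised 7 and lowered 7. The culture change differed between genotypes for 7 of the 21, being lower in WT for 6. *Id2* and *Lef1* were low in WT, with means of 5.45 and 6.12 CPM before culture and 2.24 and 12.96 after it.

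All 20 genes on a list of those activated by PAX5 or EBF1 were tested, and at 4 h 2 were higher and 6 lower in WT (beside 10.9% of all genes called), with a list median of -0.08. The largest differences were those of *Cd22*, a receptor that dampens antigen receptor signaling (-1.03 ± 0.06), *Cr2*, which encodes complement receptor CD21 (-0.91 ± 0.10), and *Fcer2a*, which encodes CD23 (-0.90 ± 0.06). CD21 and CD23 also define the sort gate for these cells. Culture in WT lowered 11 and raised 5, with *Cr2* at -2.75 ± 0.09, *Cd22* at -1.71 ± 0.05 and *Fcer2a* at -1.54 ± 0.06, and culture in KO lowered 9 and raised 9, beside 33.1% and 23.3% of all genes called. The difference between the culture changes was called for 8 (beside 6.39% of all genes), and was lower in WT for 7. At 0 h edgeR called 0, with 5 at an unadjusted p under 0.05, and DESeq2 called 2.

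Of 16 FOXO1 targets, 14 were tested at 4 h, and 3 were higher and 4 lower in WT (list median 0.04). *Ccr7*, a homing receptor gene (1.18 ± 0.07), *Gadd45a* (0.76 ± 0.12) and *Bcl2l11*, which encodes the death factor BIM (0.71 ± 0.06), differed most among the called genes, while *Foxo1* itself gave 0.09 ± 0.06. At 0 h 2 of 13 were higher in WT (*Klf2* and *Cited2*). Culture in WT raised 7, *Ccr7* (1.49 ± 0.07) and *Bcl2l11* (1.30 ± 0.08) most, and lowered 1 (*Klf2*, -0.84 ± 0.07). In KO it raised 9, and the culture change differed between genotypes for 6, lower in WT for 3 and higher for 3.

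Of 15 genes repressed by BCL6 or BACH2, 12 were tested, and at 4 h only *Bcl2*, a survival gene, was called, lower in WT (-0.57 ± 0.07). This count is near the 10.9% of all genes called. The list median was 0.20. Culture in WT raised 4 and lowered 5, with *Hmox1* at -2.94 ± 0.37, *Cdkn1a* at 1.28 ± 0.33 and *Id2* at -1.23 ± 0.35, and culture in KO raised 2 and lowered 5. The difference between the culture changes was called for 1, *Bcl2* (-0.56 ± 0.13). At 0 h edgeR called 0 and DESeq2 0, with 2 at an unadjusted p under 0.05. *Hmox1*, *Cdkn1a* and *Id2* were low in WT. Mean CPM before and after culture was 8.99 and 1.27 for *Hmox1*, 2.65 and 6.29 for *Cdkn1a*, and 5.45 and 2.24 for *Id2*. Culture in WT also lowered 2 of 5 macrophage and monocyte markers tested, *Csf1r* (-1.76 ± 0.30) and *Lyz2* (-1.49 ± 0.34), and raised 0. Of all genes tested, it lowered 18.0% and raised 15.1%. Culture in KO lowered the same 2 markers and raised 1, *Emr1* (1.13 ± 0.40), beside 13.0% and 10.3% of all genes. *Hmox1* fell in KO as well (-3.35 ± 0.38). Whether other cell types contributed to the *Hmox1* value was not tested.

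Of 12 genes of the plasma cell programme, 11 were tested, and 1 was higher and 1 lower in WT at 4 h (*Ell2*, 0.36 ± 0.08, and *Slamf7*, -0.51 ± 0.06; list median 0.05), beside 10.9% of all genes called. At 0 h 1 was called, *Sdc1*, higher in WT (1.64 ± 0.28), at low means of 7.73 CPM in WT and 2.4 in KO. *Igj* went the other way (-0.87 ± 0.28) and was not called (edgeR adjusted p 0.173). Culture in WT raised 4 and lowered 4, led by *Sdc1* (1.64 ± 0.17), *Fkbp11* (-1.09 ± 0.37) and *Prdm1* (0.96 ± 0.27), and culture in KO raised 3 and lowered 3, beside 33.1% and 23.3% of all genes called. The culture change was lower in WT for 2, *Sdc1* and *Slamf7*. *Fkbp11* and *Prdm1* were low in WT too, with means of 5.2 and 4.8 CPM before culture and 2.5 and 9.3 after it. *Prdm1*, the master gene of plasma cell fate, gave 0.34 ± 0.24 between genotypes at 4 h (edgeR adjusted p 0.444).

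**Figure D5:**
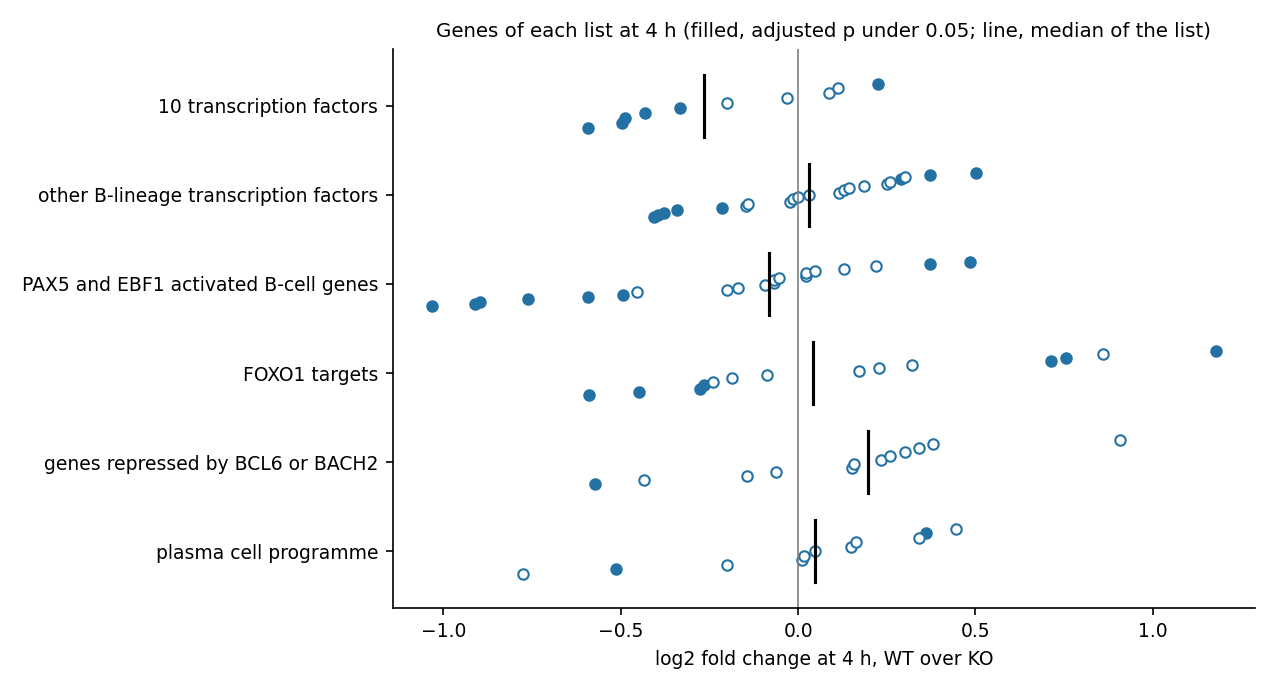
Log2 fold change at 4 h, WT over KO (horizontal axis), for the 10 genes and for the genes of each list tested (rows), with filled points for an adjusted p under 0.05 and a line at the list's median. Medians lie at -0.27 for the 10 genes and between -0.08 and 0.20 for the other lists.

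For 4 of the genes, exons are shared with a gene on the opposite strand, and the strand setting of the count was not stated. The shared share of exon bases was 7.18% and 1.41% for *Pax5* (5730488B01Rik and Gm12462), 7.78% for *Foxo1* (Gm20402), 5.40% for *Bach2* (Bach2os) and 0.313% for *Bcl6* (Gm37419). None of those genes has a row in the tables.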

How the data were processed

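The authors deposited raw counts of single-end reads per gene for 12 libraries, in a table for 0 h and a table for 4 h, after alignment to mm10 with STAR and counting with HTSeq, as the submitters' processing notes name them. The versions, annotation and strand setting are not given in the sources used here. Row sums started at 10 reads over 6 libraries. From these counts, TMM-scaled CPM, filterByExpr filtering and the edgeR 4.0.16 quasi-likelihood test (R 4.3.3) were computed, with Benjamini-Hochberg adjustment over all genes tested. Genotypes were compared at each time with the 6 libraries of that time. For culture and for the difference of culture changes, the 4 groups were fitted together. Each ± after a log2 value is a standard error, and after CPM or a ratio an SD (n = 3). Alternatives were plain library totals, RLE factors, no filter, DESeq2 1.42.0, other groups in the fit, a replicate block and leaving out each library. Lengths and positions came from GENCODE annotation on GRCm38. The code was tested on simulated data. Replicate libraries differed by more than sampling noise (chi-square per degree of freedom 1.94 to 9.3), so none were merged. The members and lists were chosen with earlier results of these data known. Named genes are all members, the 3 called genes of each list with the largest change at 4 h or in WT culture, and the 2 nearest patterns, and the genes behind counts of 5 or fewer were added after the values were seen. The study's 1 h libraries were not analysed here.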

Additional observations from a re-analysis of the deposited data

Results flagged for a closer look

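The change over culture differed between WT and KO by the interaction test in 4 of the 10 genes, each lower in WT: *Pax5* by -0.54, *Ikzf3* by -0.61, *Bcl6* by -0.70 and *Bach2* by -0.52 on the log2 scale, with edgeR adjusted p-values of 0.000162, 2.47e-05, 4.72e-05 and 0.000142. *Pax5* and *Ikzf3* fell further in WT than in KO, where their calls were lost on plain library totals. *Bcl6* fell in WT and was not called in KO, and *Bach2* rose in KO.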

How the results depend on the processing

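Over 650 comparisons of a gene's value with that under an alternative, 592 kept direction and side of the threshold. The interaction of *Pax5*, *Ikzf3*, *Bcl6* and *Bach2* stayed called in all alternatives. Genotype values at 0 h near zero turned sign: *Ebf1* with no filter (0.0064), all groups in the fit (0.0079), DESeq2 (0.0018), and without a library (-0.031 to 0.027), *Spib* with no filter (0.0006), all groups (0.0018) and without a library (-0.0256 to 0.0302), and *Bach2* on library totals (-0.0169) and without a library (-0.0145 to 0.0435). In culture, *Bach2* in WT (0.0642) and *Ebf1* in KO (0.0333) turned sign on library totals, and the interactions of *Foxo1* (-0.0528 to 0.0817) and *Spib* (-0.0719 to 0.0007) did so without a library, the cause of which was not tested. The number of genes called at 0 h, 112, ran from 26 (without KO 0 h replicate 1) to 161, being 50 without WT 0 h replicate 2, 59 without WT 0 h replicate 3 and 55 without KO 0 h replicate 3, and at 4 h, 1212, from 776 (without KO 4 h replicate 1) to 1361. With the replicate block, 0, 5, 8, 7 and 5 genes of the 10 were called at 0 h, at 4 h, over culture in WT and in KO, and in the interaction, beside 138, 1062, 3979, 2861 and 842 of all genes. *Irf4* at 4 h lost its call (0.22, adjusted p 0.058), and *Foxo1* in KO and the *Ikzf1* interaction gained one (0.0204 and 0.0338). In the culture tests and the interaction, this block tied libraries of the same number within a genotype. In the genotype contrasts it tied WT and KO libraries of the same number, which come from different mice. Between genotypes, 2 of 6 libraries were closest to their own number at each time. Replicate numbers were not used as pairs in the main tests, because the labels do not tie a number to a mouse. In addition, not every same-numbered correlation of deviations from group means was over 0.1. Between 0 h and 4 h these were 0.08 to 0.132 in WT, where 6 of 6 libraries were closest to their own number, a hint of pairing, and -0.0426 to 0.152 in KO, where 4 of 6 were. On plain library totals, 18 of the 40 group levels moved by more than their SD. Counting error is small for the 10 genes (746 reads or more), and 3 libraries against 3 limit precision.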
